A study of Mus musculus with 4 samples.

Results

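Cluster 2 of the mouse kidney nuclei is a proximal tubule cluster, named PT-S1-S2-2 by the order in which the study lists its clusters. The deposited table holds 1 mean per cluster and mouse, and its members are the 4 columns numbered 2, of 92 columns for 23 clusters in 4 mice. Nuclei came from the kidney cortex of male mice of mixed strain. All 4 mice were fed doxycycline at 200 mg/kg of diet for 1 week and all 4 carried the TRE-hKLF6 transgene, a human KLF6 gene behind a tetracycline response element. The control mouse had no transactivator and no injury, and the control mouse with AAI received 1 intraperitoneal injection of aristolochic acid I (AAI) at 2 mg/kg, 24 hours before collection. The hKLF6 OE mouse also carried CAG-rtTA, a transactivator driven in all tissues rather than in the tubule alone, and had no injury, while the hKLF6 OE mouse with AAI had both. The solvent of AAI was DMSO. Each condition is 1 mouse, so no condition has a spread between mice, no test between conditions could be made, and every difference describes these 4 mice.

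The proximal tubule reclaims most of the filtered glucose, amino acids, phosphate and protein, and runs in order through the segments S1, S2 and S3. S1 holds the high-capacity, low-affinity sodium and glucose cotransporter SGLT2 (Slc5a2) and the lactate carrier Slc5a12, S2 is known for secretion of organic anions through OAT1 (Slc22a6) and OAT3 (Slc22a8), and S3 for high-affinity transporters and for a high content of peroxisomes and cytochromes P450. AAI is taken up into these cells through OAT1 and OAT3, is reduced to a form that binds DNA, and the adducts activate p53 and block transcription. KLF6 is a zinc finger transcription factor induced early in kidney injury. Human KLF6 has no row in the table, so expression of the transgene could not be checked in cluster 2. Mouse Klf6 was 0.255 in the control mouse, 0.523 in the control mouse with AAI, 0.179 in the hKLF6 OE mouse and 0.468 in the hKLF6 OE mouse with AAI.

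Values are the mean normalized expression over the nuclei of a cluster, in parts of 10000, on a linear scale. Differences are given as log2(value + 1) of one column minus another, which understates the change of low genes. A gene was tested where the larger of both values was at least 0.5 and was called higher or lower from a difference of 0.2, in all the mice or pairs a comparison covers. The number of nuclei and the read depth behind a column are not in the table, so no interval is given. Between 21.9% and 28.0% of 19609 genes stood at exactly 0 in cluster 2, with the highest shares in the AAI-treated mice (26.5% in the control and 28.0% in the hKLF6 OE mouse, against 23% and 21.9% without AAI).

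Markers of S1 and S2 were high and the summed S3 markers low in cluster 2 of all 4 mice. Slc5a12, the sodium-coupled lactate carrier (chr2:110597298-110647779 in GRCm38), was 38.9 in the control mouse, 59.3 in the control mouse with AAI, 44.8 in the hKLF6 OE mouse and 45.3 in the hKLF6 OE mouse with AAI. Its mean of 47.1 was the second highest of the 23 clusters, after 55.2 in cluster 1, PT-S1-S2-1. The summed level of 8 S1 and S2 markers lay between 135 and 161, second to cluster 1 in every mouse. By contrast 6 S3 markers summed to between 3.68 and 6.99, against 83.9 to 105 in cluster 3, PT-S3-2. Cyp7b1, a steroid hydroxylase of S3, was 0.379, 0.481, 0.354 and 0.590 in the order of the conditions above, and Slc22a7, an S3 organic anion carrier, was 0.148, 0.0695, 0.237 and 0.124. Of the genes listed for PT-S1-S2-2 in the study's marker table, used here by name only, 717 were in the table, and their median difference from the other clusters was highest in cluster 2 of all 23 (0.45, with cluster 0 second at 0.35). The 806 genes listed for PT-S1-S2-1 were also highest in cluster 2, at 0.23 against 0.20 in cluster 1. Among the 96 of them that no other of the 5 normal proximal tubule sheets holds, cluster 1 came first at 0.19.

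Markers of other cell types were low in cluster 2. The 5 podocyte markers summed to 0.327 to 0.595 against 91.6 to 109 in the highest cluster, the 6 endothelial markers to 0.448 to 0.602 against 62.7 to 66.2 in the highest cluster, and the 6 macrophage and leukocyte markers to 0.0826 to 0.306, with Cd3e at 0 in all 4 mice. Thick ascending limb markers, which include the abundant Umod and Slc12a1, summed to 5.83 to 6.99 against 298 to 375 in the highest cluster. The 6 markers of injured proximal tubule summed to 1.37 and 1.60 without AAI and to 2.38 and 2.64 with it. Most of the level was Polr2a, and Lcn2 was at 0 in 3 of the 4 mice. Cxcl1 changed more with AAI than Polr2a did. It was 0.0403 and 0.0890 without AAI and 0.791 and 0.985 with it, where Polr2a was 1.25 and 1.5 without and 1.53 and 1.60 with it. The sum of the 6 markers reached 29.3 and 26.1 in the AAI-treated mice in cluster 6, where Polr2a also made up most of it. Cluster 6 is InjuredPT-A by the same order, one of the study's injured proximal tubule clusters. Of the 6 markers, Havcr1, Krt20 and Cxcl1 were highest in cluster 12. Doublet removal is not described for these nuclei.

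Levels are not divided by gene length, so the order of genes within the cluster is one of counted molecules. The most abundant transcript was the nuclear noncoding RNA Malat1, at 1014 in the control mouse, 847 in the control mouse with AAI, 1269 in the hKLF6 OE mouse and 989 in the hKLF6 OE mouse with AAI. Next by mean over the mice came Zbtb20, a transcriptional repressor, the glycine N-acyltransferase-like gene Keg1, the cAMP phosphodiesterase gene Pde4d, the phosphate cotransporter gene Slc34a1, and the endocytic adaptor gene Dab2. Zbtb20 was 74.5, 114, 75.5 and 79.8 in the order of conditions given above. Slc34a1 was 73.8, 47.6, 57.8 and 45.6, and it was lower with AAI in both genotypes. Kap, the androgen-regulated kidney protein, stood at 52.3, 44.2, 76.4 and 35.2, although cluster 2 ranked only 18 of 23 for it. Slc5a12, mt-Co3 and the growth hormone receptor gene Ghr complete the 10 highest.

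Set against an unweighted mean of the remaining 22 clusters in each mouse, cluster 2 had higher levels of genes of lactate, sulfate and anion transport, endocytosis and amino acid breakdown. Of 3966 genes tested, 567 were higher in all 4 mice (14.3%) and 648 lower (16.3%). The clusters were made from these same expression values, so the differences describe the cluster and test nothing. Slc5a12 stood 2.37 to 2.58 above the others on the log2 scale. Dab2, the adaptor that links megalin to clathrin, was 55.4, 67.1, 43.4 and 52.2 against 15.9, 14.7, 12.4 and 11.22 in the mean of the others, and it was higher in cluster 2 than in any other cluster. Slc13a1, the sodium sulfate cotransporter, was 19.8, 37.6, 11.8 and 34.6 and was also highest in cluster 2. Errfi1, an inhibitor of the EGF receptor, and Fut9, a fucosyltransferase, were highest in cluster 2 too, with differences of 1.43 to 1.70 and 1.38 to 1.76. Against cluster 1 alone or cluster 0 alone, however, Dab2, Slc13a1 and Errfi1 were not called higher in all 4 mice. Among the genes tested in these clusters, only C330002G04Rik, described below, was called above both. The class II phosphoinositide 3-kinase gene Pik3c2g, the NADPH oxidase gene Nox4, the zinc finger gene Bnc2, the glycine decarboxylase gene Gldc and Nhs fill the 10 leading places, each second to cluster 1. The 5 genes furthest below the others belong to distal segments or other cells, and among them Slc8a1, the sodium calcium exchanger of the connecting tubule, was 0.969, 0.810, 0.582 and 2.12 against 37.0, 32.5, 24.7 and 41.0. Slc12a1, the cotransporter of the thick ascending limb, differed by -3.59 to -3.22, and Mecom, Tmem117 and Phactr1 by similar amounts, the smallest of them -3.21.

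Counts on a list are over its members that were tested, and a member can be tested through its level in 1 group alone. Of the 18 genes of the S1 and S2 list, all tested, 16 were higher than in the other clusters, 0 were lower, and the medians were 1.05 to 1.42 in the 4 mice against -0.07 to 0.00 over all genes tested. In the list of organic anion, cation and drug carriers 12 of 17 tested, of 27 in the table, were higher and none lower (medians 0.53 to 0.72), led by Slc47a1, the proton and cation exchanger MATE1. The receptor-mediated endocytosis list, with 22 in the table, had 9 of 16 tested higher and none lower, which were Dab2, Snx29, Rab11fip3, Lrp2 (megalin), Cubn (cubilin), Folr1, Inpp5b, Amn and Myo6. Genes of amino acid metabolism, of which 35 are in the table, were higher in 19 of 28 tested, Gldc, Gatm, Cryl1 and Dao first, and lower in 1. The S3 list, with 16 in the table, was mixed, with medians of -0.39 to -0.16. Of its 12 tested, 4 were higher (Slc7a9, Slc1a1, Slco1a6 and Slc3a1) and 6 lower. For amino acid transport the counts were 8 higher and 3 lower of 15 tested and 22 in the table. The 3 lower were Slc7a13, Slc38a2 and Slc6a18, of which Slc7a13 and Slc6a18 are carriers of S3. Ribosomal proteins and the mitochondrially encoded genes had no member higher, 1 of 27 and 3 of 11 lower, and medians of -0.32 to -0.15 and -0.51 to -0.12.

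Cluster 2 differed from cluster 1, the other S1 and S2 cluster, in both directions and by less. Of 3509 genes tested, 140 were higher in cluster 2 in all 4 mice (3.99%) and 144 lower (4.1%). The largest excess was in Erc2, a presynaptic scaffold gene of 856 kb (chr14:27622428-28478537), at 8.73, 7.16, 6.90 and 1.80 in cluster 2 and 1.47, 0.737, 1.20 and 0.267 in cluster 1. In cluster 0, PT-S3-1, Erc2 was higher still, at 14.1, 10.6, 12 and 5.29. Many of the other leaders carry anions, bile salts or drugs. Slco1a6, an organic anion carrier, was 9.88, 9.35, 7.44 and 5.76 against 3.40, 2.93, 2.93 and 2.29, and Slc13a3, the dicarboxylate carrier that feeds organic anion exchange, was 5.23, 5.62, 5.33 and 3.84 against 2.17, 1.69, 1.74 and 0.790. Slc22a28 and Slc22a30, relatives of OAT1, differed by 0.85 to 1.24 and 0.84 to 1.00. Zbtb20, Hnf4g (a nuclear receptor of the HNF4 family), Cyp2j13 (an epoxygenase), Galnt18 and Gm19950 complete the 10 leading genes. In the drug carrier list 8 of 17 were higher than in cluster 1 and 1 was lower, with medians of 0.22 to 0.30 beside -0.01 to 0.01 over all genes tested. The 8 were Slco1a6, Slc22a28, Slc22a30, Slco3a1, Slc22a22, Slc22a2, Slc22a6 and Slc47a1, and the 1 lower was Slc22a23. For OAT1 itself, Slc22a6, the levels were 2.07, 1.98, 2.39 and 1.78 in cluster 2, 1.27, 1.36, 1.75 and 1.15 in cluster 1 and 3.1, 2.99, 2.84 and 1.99 in cluster 0. OAT3, Slc22a8, was 3.48, 3.46, 3.08 and 1.86 in cluster 2 and 2.71, 2.62, 2.30 and 1.65 in cluster 1, and the hKLF6 OE mouse with AAI missed the threshold at 0.11.

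The early-segment genes lay on the other side. Slc5a2, SGLT2, was 4.92, 3.47, 3.46 and 3.44 in cluster 2 and 9.65, 6.25, 7.02 and 6.32 in cluster 1. Slc7a8, the basolateral neutral amino acid exchanger, showed 2.34, 3.1, 2.12 and 3.76 against 8.98, 7.08, 6.94 and 7.08, and Slc16a10, an aromatic amino acid carrier, 2.22, 2.58, 1.83 and 3.27 against 6.45, 6.74, 4.12 and 8.56. All 3 were lower in cluster 2 in every mouse. Of the S1 and S2 list, 6 of 18 were lower than in cluster 1 (Adra1a, Slc7a8, Slc5a2, Slc7a7, Gatm and Slc4a4) and 3 higher (Slc13a3, Lrp2 and Slc22a6), with medians of -0.31 to -0.15. The endocytosis list had 1 of 17 higher and 2 lower than in cluster 1 (medians -0.11 to -0.08), and amino acid metabolism 0 of 28 higher and 3 lower (-0.05 to -0.02). Of the S3 list, 3 of 10 tested were higher than in cluster 1 (Slco1a6, Slc27a2 and Atp11a) and none lower. Slc5a12 did not reach the threshold in all mice, with differences of -0.39, -0.22, -0.31 and 0.02. The leading lower genes also included Epb41l3, a membrane skeleton gene, at -1.56 to -1.05, Acss1, the mitochondrial acetyl-CoA synthetase, at -1.23 to -0.95, and the alpha-1A adrenergic receptor gene Adra1a, at -1.0 to -0.81. Snhg11, Agmo, Pip5k1b, Col8a1 and 4921539H07Rik fill the remaining places. Mitochondrially encoded genes were lower in 4 of 11, and their summed share of expression was 1.63%, 1.20%, 2.32% and 1.25% in cluster 2 against 2.23%, 1.59%, 3.16% and 1.43% in cluster 1, so it was lower in cluster 2 in every mouse. The share of genes over 100 kb was 49.3% among the 140 higher genes, 37.3% of the 142 lower genes with a known span and 30.0% of the genes tested. Nuclear RNA counted with introns draws more reads from long genes, and the part of gene length in this difference was not tested.

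Against cluster 0, early-segment genes were higher in cluster 2 and S3 genes lower. Of 3404 genes tested against it, 125 were higher in cluster 2 (3.67%) and 90 lower (2.64%). On the S1 and S2 list 9 of 18 were higher and 0 lower (medians 0.39 to 0.66). Gatm, which makes guanidinoacetate for creatine, was 8.06, 8.11, 6.48 and 6.03 against 2.06, 2.03, 1.62 and 2.54 in cluster 0. Slc5a2 was 0.940, 0.890, 0.749 and 1.42 there, below cluster 2 by 0.87 to 1.61. Magi2 and Auts2, both long genes, and Angpt1, the TIE2 ligand, were the other leaders, with differences of 1.09 to 1.87, 1.02 to 1.96 and 0.91 to 1.20. On the S3 list 6 of 11 were lower in cluster 2 than in cluster 0 and none higher (medians -0.79 to -0.55). These were the phospholipid flippase gene Atp11a, Slc6a18, Slc7a13, Slc27a2, Slc5a8 and Slco1a6. Atp11a was 3.00, 2.22, 2.34 and 1.58 against 8.98, 6.50, 7.11 and 3.99. Ghr, Slco1a1, Mat2a (methionine adenosyltransferase) and Gm853 followed, and Ghr was 34.7, 60.9, 34 and 45.5 against 58.3, 108, 62.6 and 78.5. Cluster 0 bears an S3 name, but its Cyp7b1 was 0.322, 0.358, 0.307 and 0.435 where cluster 3 averaged 41.2. Slc5a12 in cluster 0 was 2.72, 8.24, 2.59 and 24.4, so that its difference from cluster 2 was 3.42 and 3.67 in the uninjured mice but only 0.87 in the hKLF6 OE mouse with AAI.

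**Figure D1:**
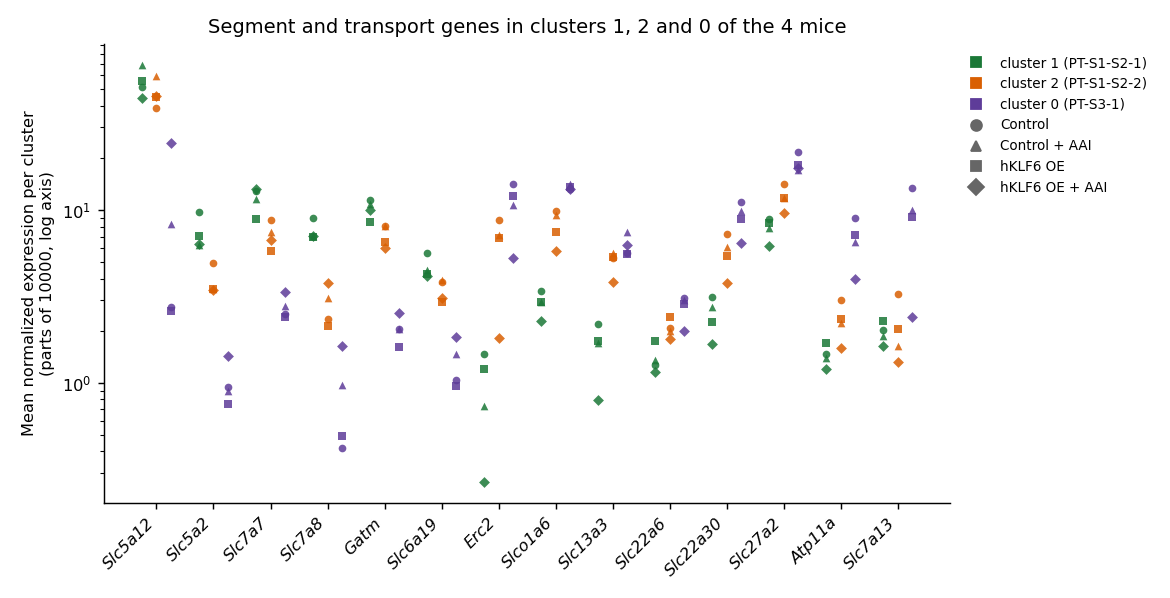
Mean normalized expression (parts of 10000, log axis) of 14 segment and transport genes in clusters 1, 2 and 0, with 1 point for each of the 4 mice (shape) and no error bars, since each point is 1 mouse. Slc5a2, Slc7a7, Slc7a8 and Gatm step down from cluster 1 through cluster 2 to cluster 0, while Erc2, Slco1a6 and Atp11a step up.

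By most genes that separate clusters 1 and 0, cluster 2 lay between them, close to midway. Among 3642 genes tested in the 3 clusters, 103 were higher in cluster 1 than in cluster 0 by at least 0.5 in all 4 mice and 77 were higher in cluster 0. The choice of these genes did not use cluster 2. On a scale where 0 is the level of cluster 0 and 1 that of cluster 1, cluster 2 lay between both for 103 of 103 and 76 of 77 genes by the mean of the mice. It lay between in every single mouse for 99 of the 103 and 70 of the 77. The median position was 0.48 (quartiles 0.41 and 0.60) for the first set and 0.44 (0.34 and 0.54) for the second. In single mice the median ran from 0.45 to 0.53 for the first set and from 0.39 to 0.51 for the second. Only 1 of the 3642 genes, or 0.0275%, was above both neighbours by 0.2 in all 4 mice, and 0 were below both. That gene was C330002G04Rik, a long intergenic noncoding RNA (chr19:22978230-23075924), at 1.55, 3.33, 2.67 and 1.19 in cluster 2, 0.994, 2.38, 1.97 and 0.796 in cluster 1 and 0.948, 1.03, 1.58 and 0.645 in cluster 0. Pearson's r of cluster 2 was 0.976 with cluster 1 and 0.976 with cluster 0 in the control mouse, 0.978 and 0.973 in the control mouse with AAI, and 0.982 and 0.981 in the hKLF6 OE mouse with AAI. That r is across the genes of 1 library each (9420 and 9057 in the first and the last), which are no independent replicates.

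**Figure D2:**
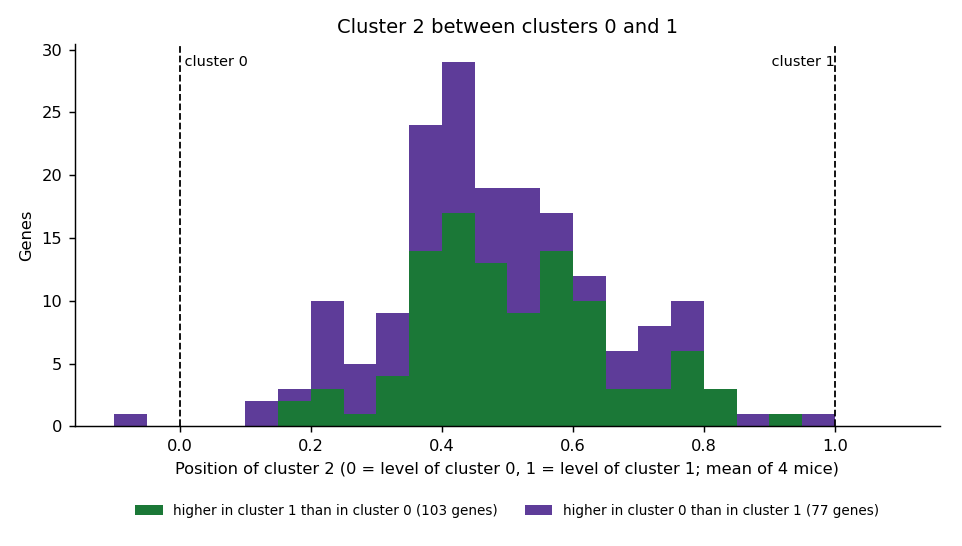
Number of genes by the position of cluster 2 between cluster 0 (0, dashed) and cluster 1 (1, dashed), as the mean of 4 mice, for the 103 genes higher in cluster 1 and the 77 higher in cluster 0. Both sets centre close to the middle, with medians of 0.48 and 0.44, and 1 gene lies beyond cluster 0.

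With AAI, cluster 2 of both genotypes showed higher levels of several p53 target genes and of named transport and signaling genes, and lower mitochondrially encoded transcripts. In the control genotype 579 of 3997 genes tested were higher (14.5%) and 542 lower (13.6%). In the hKLF6 OE genotype 868 of 4096 were higher (21.2%) and 656 lower (16%). When differences were centred on the median of the genes tested, which was 0.04 in the hKLF6 OE pair, 659 genes were higher and 824 lower there. Both pairs called 279 of 3782 genes higher (7.38%) and 206 lower (5.45%). With the same centring both pairs called 238 higher and 241 lower. These pairs share no mouse. Of the 552 genes called higher in control mice among those tested in both genotypes, 50.5% were also higher in hKLF6 OE mice and 46 were lower there, and of the 490 called lower 42.0% were lower and 45 were higher. The share of genes at exactly 0 was also higher with AAI in both genotypes, as given above, and its part in these counts was not tested. A change within nuclei and a change in which nuclei fall into cluster 2 cannot be told apart in cluster means.

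Exoc4, a subunit of the exocyst that tethers secretory vesicles, came first among the higher genes by the smaller of both differences. Its level was 4.90 in the control mouse, 14.6 in the control mouse with AAI, 5.07 in the hKLF6 OE mouse and 21.1 in the hKLF6 OE mouse with AAI. Gria3, a glutamate receptor subunit, was 2.52, 7.76, 1.71 and 11.8 in the same order, so that both AAI-treated mice lay above both others. Cyp24a1, the enzyme that breaks down active vitamin D, was 0.485, 2.72, 0.0598 and 1.55. The hKLF6 OE mouse of each pair was the lower one. Ppara, the nuclear receptor that drives fatty acid oxidation, reached 15.9 and 11.9 with AAI from 5.87 and 5.96 without. The sulfate carrier Slc13a1, a leading gene of the cluster, differed by 0.89 in control and 1.47 in hKLF6 OE mice. Gas6, the ligand of the receptor AXL, was 1.96, 5.01, 1.72 and 4.83, and the immediate early gene Egr1 0.512, 2.23, 0.267 and 2.40. Mdm2 and Trp53inp1, both targets of p53, and the noncoding gene Gm26917 close the 10. Chd9, chosen after its values were seen, had the largest positive difference in control mice among the genes tested in both genotypes. There it was 2.38 without and 16.6 with AAI, against 5.34 and 8.93 in hKLF6 OE mice.

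The lower genes were led by Gm42397, a long noncoding RNA gene of 202 kb, at 9.92 in the control mouse, 0.925 in the control mouse with AAI, 7.90 in the hKLF6 OE mouse and 0.121 in the hKLF6 OE mouse with AAI. Wwox and Park2, long genes at common fragile sites, were 8.06, 2.71, 6.30 and 2.01 and 9.48, 4.11, 8.37 and 3.43. Lipoprotein lipase, Lpl, was 3.95, 0.795, 2.04 and 0.452. Miox, which oxidizes inositol and is largely restricted to the proximal tubule, was 12.6, 5.80, 12.4 and 3.37, and Slc22a12, the urate exchanger URAT1, 1.56, 0.283, 1.86 and 0.156. In all of these both AAI-treated mice lay below both untreated mice. Mylk, Pard3b, 4930533I22Rik and 5730522E02Rik complete the list.

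**Figure D3:**
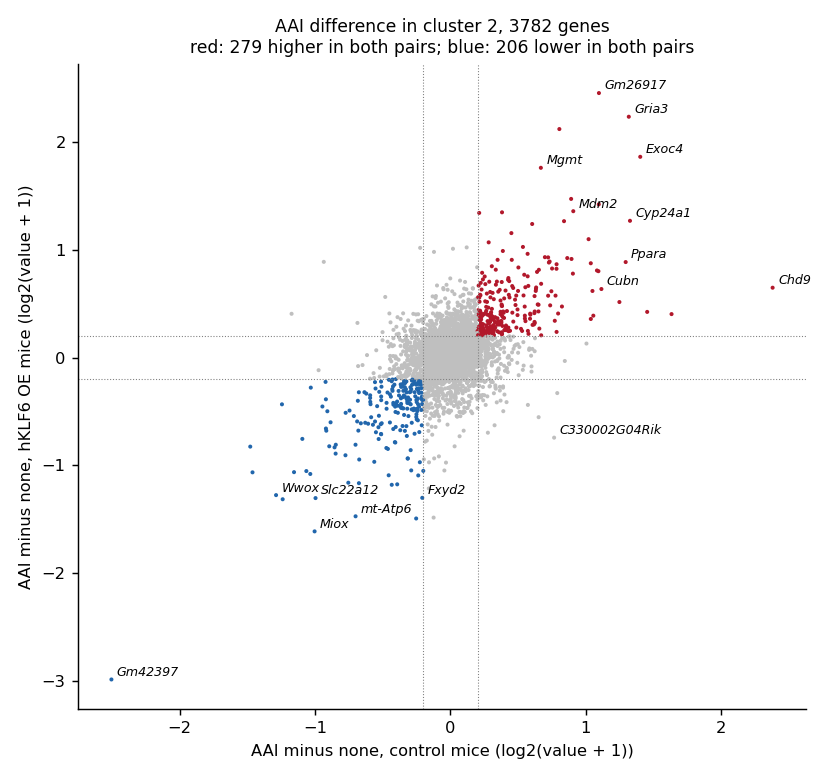
Difference with AAI in cluster 2 for 3782 genes, with control mice on the x axis and hKLF6 OE mice on the y axis (log2(value + 1)), 1 mouse per condition. Dotted lines mark 0.2 either way, and 279 genes lie past both in the upper right and 206 in the lower left.

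Several targets of p53 were higher with AAI in cluster 2 of both genotypes. Of the 41 listed targets 12 were tested in control mice and 16 in hKLF6 OE mice, and 8 and 11 of these reached 0.5 through the AAI-treated mouse alone, so counts are given over all 41 with no filter. In control mice 14 of the 41 were higher and 0 lower, with a median of 0.09. Of all 19609 genes 3.26% were higher and 3.27% lower there, with a median of 0.00. In hKLF6 OE mice 17 of the 41 were higher and 1 lower, with a median of 0.14, beside 4.88% and 4.35% of all genes and a median of 0.00. Mdm2, Trp53inp1, Gdf15, Ccng1, Btg2 and Polk were tested and higher in both. Of these Mdm2, the ubiquitin ligase that restrains p53, was 0.889, 2.54, 0.883 and 3.83. Polk, a polymerase that bypasses bulky adducts, was 0.327, 0.879, 0.331 and 1.38. Mgmt and Rev1 also repair or bypass DNA lesions. Mgmt differed by 0.67 in control and 1.76 in hKLF6 OE mice, and Rev1 by 0.24 in control and 0.73 in hKLF6 OE mice. In the DNA repair list 3 of 12 tested, of 33 in the table, were higher in both genotypes (Mgmt, Polk and Rev1) and none lower. Of all genes tested in both genotypes, 7.38% were higher and 5.45% lower. Polk reached 0.5 only in the AAI-treated mice, so it could not have been called lower. Cdkn1a, which encodes p21, was below 0.5 in all but 1 of the 4 mice (0.0110, 0.378, 0 and 0.571). Immediate early genes were higher in both for 4 of 7 tested, of 24 in the table (Egr1, Zfp36, Junb and Errfi1) and lower for Dusp1. The counts on the DNA repair and immediate early lists keep the minimum of 0.5, which a member can pass through the AAI-treated mouse alone.

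Segment genes moved unevenly. Of all genes tested in both genotypes, 7.38% were higher with AAI in both and 5.45% lower. On the S1 and S2 list 6 of 18 were higher with AAI in both genotypes (Slc13a1, Cubn, Alpl, Slc7a8, Slc2a2 and Adra1a) and Slc34a1 was lower. Cubilin, Cubn, was 4.61, 11.15, 4.29 and 7.23. On the S3 list 5 of 11 were lower in both and none higher, which were Acsm3, Slc5a8, Slc7a13, Atp11a and Slc27a2. Slc5a8, a second monocarboxylate carrier, was 0.964, 0.341, 1.00 and 0.239. It passed the minimum value only without AAI, so it could not have been called higher. The median of the S3 list's mean difference over both genotypes was -0.20 over the 11 tested, but -0.10 over all 16 in the table. In the phosphate and vitamin D list 5 of 12 were higher in both (Cyp24a1, Pdzk1, Vdr, Slc20a2 and Slc34a3), with Vdr, the vitamin D receptor, at 3.93, 5.10, 2.29 and 4.91. Slc34a1, the main phosphate carrier, was the 1 lower member, with differences of -0.62 in control and -0.34 in hKLF6 OE mice. Cyp24a1 passed the minimum value only with AAI, so it could not have been called lower. For this list the median of the mean difference was 0.20 over the 12 tested, but 0.07 over all 14 in the table. Drug carriers were lower in both for 4 of 18 (Slc22a12, Slco1a1, Slc22a28 and Slc22a30) and higher for 2 (Slc22a22 and Abcc2). Slc22a12 passed the minimum value only without AAI, so it could not have been called higher. Of the fatty acid list, 6 of 28 were lower in both, Ehhadh first at 6.08, 2.94, 2.70 and 1.11, and Ppara and its target Cyp4a10 were higher. On each of these lists a member can be tested through its level with AAI alone or without AAI alone.

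The p53 targets were higher with AAI in clusters 1 and 0 too, and the median of cluster 2 over the same 41 genes lay between theirs. The median p53 target difference in control mice was 0.05 in cluster 1, 0.09 in cluster 2 and 0.29 in cluster 0, and in hKLF6 OE mice 0.08, 0.14 and 0.34. Among 4302 genes tested, 60 had a more positive AAI difference in cluster 0 than in cluster 1 by at least 0.5 in both genotypes and 43 a more positive one in cluster 1, a rule added after the data were seen that did not use cluster 2. By the mean of both genotypes the difference in cluster 2 lay between those of its neighbours for 59 of the 60 and 41 of the 43. Measured from cluster 1, the median place of cluster 2 was 0.37 of the way to cluster 0 for the first set and 0.33 for the second. Mdm2 was 1.61, 2.54 and 7.89 in clusters 1, 2 and 0 of the control mouse with AAI, and 2.08, 3.83 and 6.65 in the hKLF6 OE mouse with AAI. The chemokine gene Cxcl1 was 0.0403, 0.791, 0.0890 and 0.985 in cluster 2, and with AAI 0.438 and 0.559 in cluster 1 and 1.23 and 2.60 in cluster 0. Slc5a12 is among the 60, with an AAI difference in cluster 0 above that of clusters 1 and 2, and the part of altered cluster membership in these differences was not tested.

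**Figure D4:**
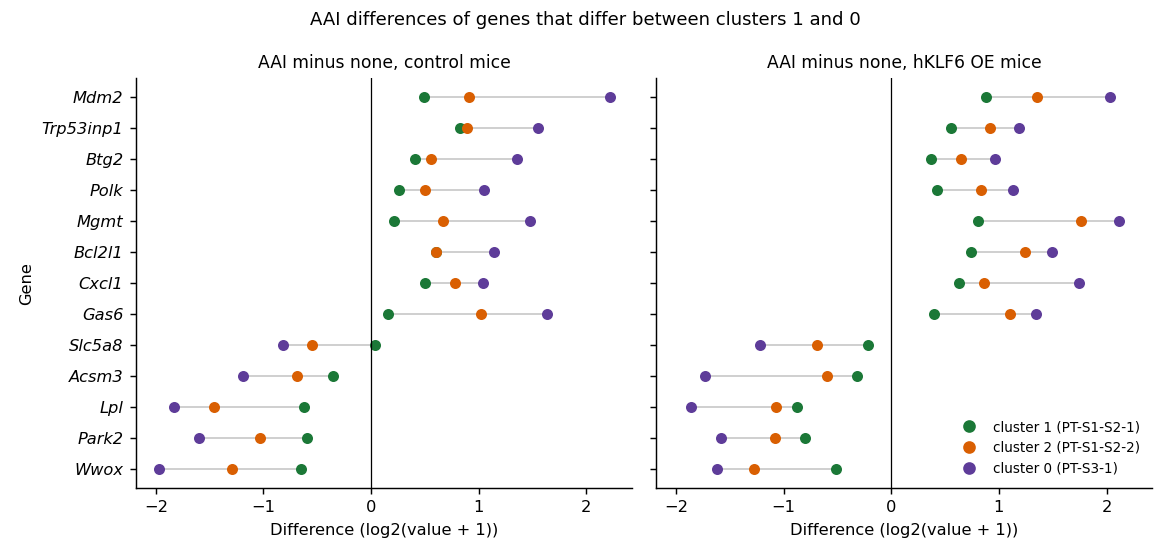
Difference with AAI (log2(value + 1), x axis) of 13 genes in clusters 1, 2 and 0, for control mice (left) and hKLF6 OE mice (right), each point 1 pair of mice. All 13 genes are among the 103 that differ between clusters 1 and 0, and cluster 2 lies between its neighbours for each by the mean of both genotypes.

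Among injury-related genes, Havcr1 was barely detected in cluster 2 and Polr2a changed little with AAI. Havcr1, the injury marker KIM-1, was 0.0383, 0.0251, 0.0117 and 0.0159, and did not reach 0.5 in any mouse. Krt20, a keratin of injured tubule, was 0, 0.00485, 0 and 0.0292. Polr2a, the largest subunit of RNA polymerase II, was 1.25, 1.53, 1.5 and 1.60, within 0.2 for each AAI pair. Its mean in InjuredPT-A was 12.6 over all 4 mice, the uninjured mice included. Il34, a macrophage growth factor, was 2.48, 1.68, 1.56 and 1.38, with AAI differences of -0.38 in control and -0.10 in hKLF6 OE mice, of which the first passed the threshold. That the genotypes differ in it was not tested. Bmp6 was 4.26, 4.04, 3.92 and 3.16, and its mean in cluster 2 was the second highest of the 23 clusters. Among the injury markers 4 of 10 tested, of 30 in the table, were higher with AAI in both genotypes (Bcl2l1, Nrg1, Itgav and Stat3) and none lower. Of all genes tested in both, 7.38% were higher and 5.45% lower. In control mice alone 5 of 11 were higher and 2 lower (Itgb6 and Il34). In hKLF6 OE mice 6 of 10 were higher and 1 lower (Bmp6). A member can be tested through its level in the AAI-treated mouse alone.

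The hKLF6 OE mice differed from the control mice in cluster 2 by few genes that held with and without AAI, most of them lower. Without AAI 395 of 4035 genes were higher (9.79%) and 501 lower (12.4%), and with AAI 520 of 3927 were higher (13.2%) and 445 lower (11.33%). Only 38 of 3651 were higher in both (1.04%) and 122 lower in both (3.34%). The 2 comparisons share no mouse, and 61 genes that were higher without AAI were lower with it, more than the 38 that stayed higher. In the opposite sense, 69 of the genes lower without AAI were higher with it. Each group is 1 mouse of mixed strain, so that genotype and the individual mouse cannot be told apart.

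Pck1, phosphoenolpyruvate carboxykinase of gluconeogenesis, was the leading higher gene at 4.12 in the control mouse, 6.29 in the control mouse with AAI, 13.2 in the hKLF6 OE mouse and 14.2 in the hKLF6 OE mouse with AAI. Both hKLF6 OE mice lay above both control mice. Pcdh7, Gatad2a, Dnajc13, Cdr2, Sult1d1 and S100g, the calbindin-D9k gene, were also among the leading higher genes. The lower genes were led by Cyp2d12, a cytochrome P450, at 1.58, 1.83, 0.0831 and 0.295. This gene has near-identical neighbours in its family, among which its reads could be divided. Clec2h, a C-type lectin, was 7.64, 3.22, 1.45 and 1.02, and Kcnj2, an inward rectifier potassium channel, 1.21, 0.904, 0.214 and 0.0151. Ehhadh, the bifunctional enzyme of peroxisomal fatty acid oxidation, was 6.08, 2.94, 2.70 and 1.11, and it was lower with both transgene and AAI. Keg1 and Aspa, the aspartoacylase gene, differed by -0.73 without and -0.65 with AAI and -0.63 without and -0.78 with AAI, and Ctnna2 and 2810474O19Rik close the 8.

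Among amino acid and drug carriers, more were lower than higher in the hKLF6 OE mice. Without AAI 9 of 15 amino acid carriers tested were lower and 1 higher (median -0.24 beside -0.01 over all genes tested, but -0.02 over all 22 in the table), and with AAI 5 of 17 were lower and 4 higher (-0.14 beside 0.02). Slc6a19, Slc6a20b and Slc7a9 were lower in both, Slc6a19 (the neutral amino acid carrier B0AT1) at 3.81, 3.92, 2.94 and 3.08. Of the drug carriers 9 of 18 were lower without AAI (median -0.17) and 7 of 17 with it (-0.14), against 1 higher in each. The median of their mean difference over both comparisons was -0.18 over the 17 tested, but -0.04 over all 27 in the table. Of all genes tested, 12.4% were lower and 9.79% higher without AAI, and 11.33% lower and 13.2% higher with it. Slco1a6, Slc22a30 and Slc22a28 were lower in both. These 3 are also among the leading genes of cluster 2 over cluster 1. Other carrier lists differed by condition. With AAI 3 of 6 sodium-coupled monocarboxylate and glucose carriers were higher and 2 lower (0.12). Without AAI 1 of 8 of these was higher and 3 were lower (-0.14). Of 11 genes of sodium, bicarbonate and water transport, 4 were higher without AAI and 2 lower (0.06). With AAI 1 of the 11 was higher and 6 were lower (-0.20). On the S1 and S2 list 4 of 18 were lower in both (Cyp2e1, Gatm, Slc6a19 and Slc4a4) and none higher, and on the S3 list 4 of 10 were lower. Of all genes tested in both comparisons, 3.34% were lower in both and 1.04% higher. Dab2, the leading endocytosis gene, was lower, with differences of -0.35 without and -0.36 with AAI. Fatty acid genes were lower with AAI in 13 of 30 and higher in 1 (median -0.17). Without AAI 4 of 27 were lower and 2 higher (0.00), near the 12.4% and 9.79% over all genes tested without AAI.

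Ribosomal protein, oxidative phosphorylation and mitochondrial transcripts were higher in the uninjured hKLF6 OE mouse. Of the 34 ribosomal protein genes tested without AAI, 25 reached 0.5 through the hKLF6 OE mouse alone, so counts here are over all listed genes in the table with no filter. Without AAI 31 of 79 cytosolic ribosomal protein genes were higher in the hKLF6 OE mouse and none lower (median 0.16), as were 36 of 79 nuclear genes of oxidative phosphorylation (0.19) and 11 of 13 mitochondrially encoded genes (0.48). Of all 19609 genes 2.34% were higher and 2.69% lower. With AAI the medians were -0.03, 0.00 and 0.03. AAI itself went with lower mitochondrially encoded genes in 7 of 13 in control mice (median -0.23) and 10 of 13 in hKLF6 OE mice (-0.47), with none higher. Their share of all expression in cluster 2 was 1.63% in the control mouse, 1.20% in the control mouse with AAI, 2.32% in the hKLF6 OE mouse and 1.25% in the hKLF6 OE mouse with AAI. The uninjured hKLF6 OE mouse thus had the highest share. Ribosomal protein genes were higher with AAI in 12 of 79 in control mice (0.05) and lower in 24 of 79 in hKLF6 OE mice (-0.10). The medians were 0.07 and -0.24 in cluster 1 and 0.07 and -0.11 in cluster 0. Mitochondrial transcripts in nuclear preparations come from outside the nucleus, and the part of such RNA in these differences was not tested.

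**Figure D5:**
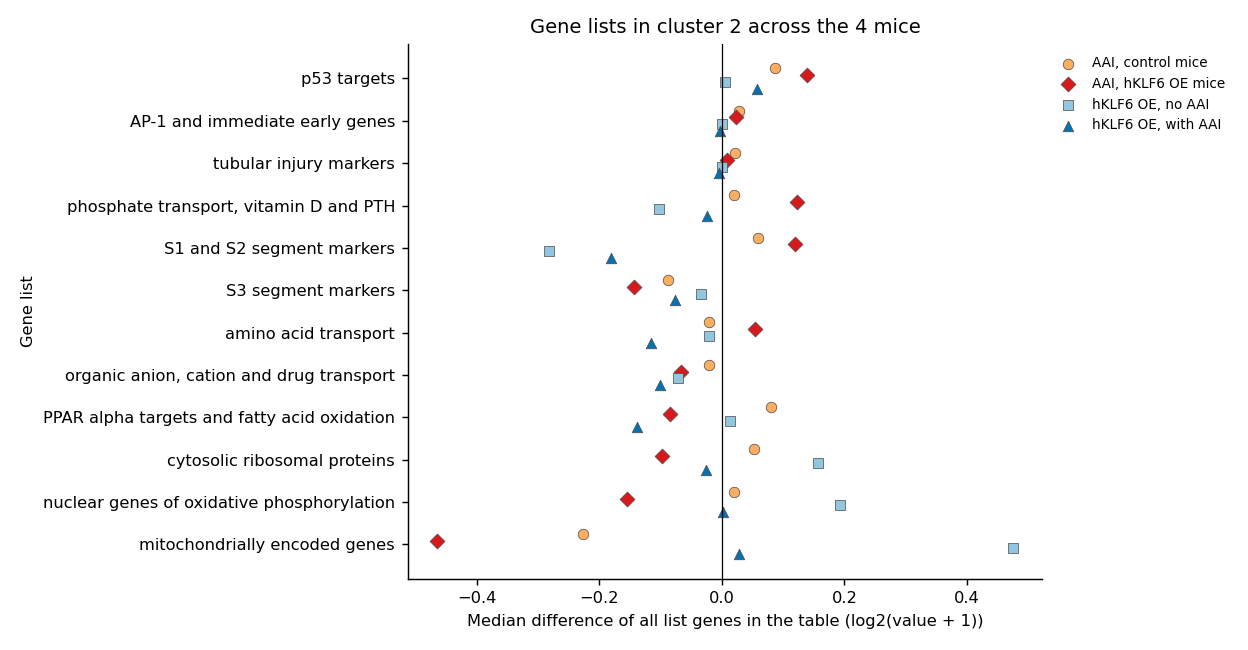
Median difference (log2(value + 1)) in cluster 2 of all genes of 12 lists in the table, with no filter, for AAI in control and hKLF6 OE mice and for hKLF6 OE against control mice without and with AAI, 1 mouse per condition. p53 targets lie at 0.09 and 0.14 for AAI and at 0.06 for hKLF6 OE with AAI, and mitochondrially encoded genes range from -0.47 to 0.48.

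The genes called with AAI differed in length, and by genotype. In hKLF6 OE mice 44.1% of the 860 higher genes with a known span were over 100 kb and 14.8% under 30 kb, whereas of the 652 lower genes 16.9% were over 100 kb and 59.8% under 30 kb. The genes tested held 27.6% and 29.4% in these classes. In control mice the higher genes had 29.9% over 100 kb and 32.6% under 30 kb, and the lower genes 33.3% and 35.8%, beside 27.9% and 28.9% of the genes tested. Among genes called in both genotypes 39.2% of the higher and 28.8% of the lower were over 100 kb, and 19.4% and 45.4% under 30 kb. The genes tested in both genotypes held 28.8% over 100 kb, the same as the lower genes, and 27.3% under 30 kb. Some of the ribosomal protein and oxidative phosphorylation genes described above are among the lower genes of the hKLF6 OE pair. Over all 79 genes of each list, the median AAI difference there was -0.10 and -0.15. The spans of these genes are not given here, and whether they account for the difference in length was not tested.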

How the data were processed

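The authors sequenced single nuclei of 4 mouse kidneys (10x Chromium, NextSeq), counted molecules with Cell Ranger 3.1.0 on an mm10 pre-mRNA reference and clustered them in Seurat 4.3, leaving out nuclei with under 200 or over 6000 genes or over 10% mitochondrial reads. The deposited values are a linear expression signal averaged per cluster and mouse, each column summing to 10000. Of 19632 rows, 23 whose names had become dates were dropped. Cluster names follow the order of the study's marker sheets. Differences were taken as log2(value + 1) in pandas, with a minimum of 0.5 in the larger value and a threshold of 0.2, and the scripts were tested on simulated data. Named genes were the leading members of each comparison, genes fixed by name, list members and cell type markers. Members and lists were chosen with earlier results of these data known, and the comparison of AAI differences between clusters after seeing the data. With 1 mouse per condition no test was made. Where list members passed the minimum mostly through 1 mouse, counts are over all members. Alternatives were another pseudocount, filter, threshold, centring, reference and subset of mice. Coordinates are GRCm38 (GENCODE). Some results are not reported here.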

Additional observations from a re-analysis of the deposited data

Results flagged for a closer look

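A few differences in cluster 2 had opposite signs in the pairs of mice compared. In none of them was the difference between the pairs tested, since each condition is 1 mouse.

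The median difference with AAI of the cytosolic ribosomal protein genes was 0.21 in control mice, over 20 genes tested, and -0.25 in hKLF6 OE mice, over 34 genes tested. Over all 79 genes of the list in the table it was 0.05 and -0.10. For C330002G04Rik, the noncoding gene that lay above both neighbouring clusters, the AAI difference was 0.77 in control mice and -0.74 in hKLF6 OE mice, and the hKLF6 OE difference was 0.53 without AAI and -0.98 with it.

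Of the named genes, 5 others had opposite signs of the hKLF6 OE difference without and with AAI. Kap, an androgen-regulated gene, differed by 0.54 without and -0.32 with AAI, and Gldc, the glycine decarboxylase gene, by 0.33 without and -0.34 with it. Snhg11, a noncoding gene, differed by 0.27 without and -0.30 with AAI. Gria3, a glutamate receptor subunit, went the other way, with -0.37 without and 0.54 with AAI, as did Slc8a1, a marker of the connecting tubule, with -0.32 and 0.79. The summed connecting tubule and principal cell markers of cluster 2, which include Slc8a1, ranged from 1.63 to 3.36 over the mice.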

How the results depend on the processing

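Among 228 recomputed values of 52 results, no list median of 0.2 or more changed sign. Of these values 158 stayed close, counts within 1.5 times and list medians within 0.2, and 70 did not, 28 of them with a pseudocount of 0.1 and 18 with a threshold of 0.5. No paired analysis was possible because each group holds replicate 1 alone, and no replicate could be left out.

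A pseudocount of 0.1 gave 220 genes higher and 314 lower than in cluster 1, and 204 and 163 against cluster 0. With AAI it gave 1043 and 1066 in control mice, 1458 and 1092 in hKLF6 OE mice, and 516 and 451 in both. For hKLF6 OE it gave 856 and 991 without AAI, 1097 and 857 with AAI, and 177 and 242 in both. List medians became 1.55 (S1 and S2), 0.64 (endocytosis) and 0.91 (amino acid metabolism) against the other clusters, and -1.05 (S3) against cluster 0. For AAI they became 1.12 and 1.60 (p53 targets), 0.47 and -0.59 (ribosomal proteins) and -0.48 (oxidative phosphorylation, hKLF6 OE), and for hKLF6 OE without AAI 0.72 (ribosomal proteins) and 0.50 (oxidative phosphorylation).

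A threshold of 0.5 left 231 genes higher and 352 lower against the other clusters, 29 and 26 against cluster 1, and 26 and 15 against cluster 0. For AAI it left 102 and 86 in control mice, 146 and 134 in hKLF6 OE mice, and 48 and 43 in both. For hKLF6 OE it left 47 and 44 without AAI, 40 and 65 with AAI, and 5 and 10 in both.

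With no filter 1083 genes were lower than in the other clusters, beside 608 higher. Against the mean of the other 4 normal proximal tubule clusters 176 were higher and 194 lower. Centring on the median of the genes tested gave 654 higher and 593 lower against the other 22 clusters. For hKLF6 OE with AAI it gave 428 higher and 509 lower. In both cases the larger count changed sides. In the 2 AAI-treated mice alone 973 were lower than in the other clusters, 227 higher than in cluster 1, and 248 higher and 240 lower than in cluster 0. In the 2 uninjured mice alone the counts were 260 and 341 against cluster 1 and 245 and 214 against cluster 0. Genes above both neighbours numbered 2 with a pseudocount of 0.1 and 5 in either subset of mice. A minimum value of 2 gave medians of 0.66 (S1 and S2 against cluster 0), 1.19 (endocytosis), 0.90 (amino acid metabolism), and 0.91 and 0.95 (p53 targets with AAI in control and hKLF6 OE mice). Over all members in the table with no filter, an alternative chosen after seeing the data, medians became -0.42 (S3 against cluster 0), 0.32 (drug carriers) and 0.13 (endocytosis) against the other clusters, 0.0871 and 0.14 (p53 targets with AAI) and -0.47 (mitochondrially encoded genes with AAI, hKLF6 OE). Fewer samples or genes enter the subsets and stricter settings by construction.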

Other observations

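Factors that maintain tubule identity differed unevenly with AAI in cluster 2, where 7.38% of all genes tested were higher in both genotypes and 5.45% lower. Of 24 tested in both genotypes, Ppara, Esrrg and Nfia were higher in both and 3 were lower, Rora among them. Of 10 circadian clock genes tested, Hlf, Tef and Nr1d2 were higher in both genotypes and 2 were lower, one of them Rora. Of 18 genes of branched-chain amino acid breakdown, Oxct1, Ivd, Acat1 and Bckdhb were lower in both genotypes and none higher. Of the sodium, bicarbonate and water transport list, 3 of 11 tested were higher in both, Slc9a3 among them, and Car4 and Fxyd2 were lower. No heat shock gene of 8 tested was called in the same direction in both. Of 5 nuclear noncoding RNAs tested, Neat1 and Malat1 were lower and Kcnq1ot1 higher with AAI in both genotypes. All of these were higher with hKLF6 OE with and without AAI, where 1.04% of all genes tested were higher in both and 3.34% lower. Each statement describes 1 mouse per condition.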
